A study of Mus musculus with 11 samples.

Results

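The genes described are 9 that set whether a cell commits to mitochondrial apoptosis, 9 of the 56748 rows of a count table of RNA from CD4 T cells that, per the design text, were sorted from mouse livers. They were taken by symbol and Ensembl gene ID, with earlier results of these data known, and all 9 passed the filter on low counts. They are the pro-survival genes Bcl2, Bcl2l1 and Mcl1, the BH3-only genes Pmaip1, Bbc3 and Bcl2l11, the pore-forming effector genes Bax and Bak1, and Apaf1, the scaffold of the apoptosome. The libraries comprised 6 from mice with the genotype label ATG5TLymph-/-, whose T lymphocytes lack the autophagy gene Atg5 (Atg5-deficient), and 5 labelled wildtype, whose Atg5 is floxed but undeleted (ATG5fl/fl). All the mice had received carbon tetrachloride (CCl4), which injures hepatocytes and leaves fibrosis, for 5 weeks, so no library comes from an uninjured liver. The Cre driver, strain, sex and age, and whether libraries came from separate mice, are not stated in the sources used here, so p-values measure the spread between these libraries only.

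BCL2 family proteins decide at the outer mitochondrial membrane whether cytochrome c is released. Pro-survival members bind and hold back the effectors BAX and BAK, and BH3-only proteins, made or activated under stress, occupy the pro-survival members and free the effectors. Cytochrome c then assembles with APAF1 into the apoptosome, which activates caspase-9. In T cells BCL2 and MCL1 sustain resting and memory cells, BCL-XL (the product of Bcl2l1) is induced by activation, and BIM (Bcl2l11) is a main driver of death when cytokines run short.

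Libraries held 30699408 to 47564440 counted reads. Between libraries of 1 genotype the chi-square per degree of freedom was 12.9 to 165, far above the sampling noise, so none was a copy of another. Atg5 was counted at 19.2 ± 2.51 CPM (reads relative to library size, scaled by TMM factors) in Atg5-deficient libraries (SD, n = 6), against 16.9 ± 3.59 CPM in wild-type libraries (SD, n = 5, adjusted p = 0.488). Exons outside the deleted part are counted too, so this does not check the genotype labels. The 10 markers of CD4 T cells summed to 3089 to 4523 CPM in Atg5-deficient libraries (median 3938) against 3117 to 3465 CPM in wild-type libraries (median 3385). Of these 10, edgeR called 1 higher and 0 lower, against 4.43% and 2.41% of all tested genes. At an unadjusted p under 0.05, 3 were higher and 0 lower. DESeq2 called 1 higher and limma-voom 3 higher, and both called 0 lower. Summed hepatocyte markers were below those of CD4 T cells, 73.7 to 1305 CPM in Atg5-deficient libraries against 56.4 to 754 CPM in wild-type libraries. Endothelial cell markers summed to 120 to 198 CPM in Atg5-deficient libraries against 123 to 223 CPM in wild-type libraries. Macrophage markers summed to at most 18.9 CPM in any library, and NK cell markers to 8.19 to 85.8 CPM in Atg5-deficient against 12.2 to 16.9 CPM in wild-type libraries. Of 40 tested markers of 9 other cell types, edgeR called 0, with 1 higher and 2 lower at an unadjusted p under 0.05, DESeq2 called 1 lower and limma-voom 4 lower. Atg5-deficient replicate 3 stood apart from its group in several of the 9 genes, and without it 1410 genes were higher and 733 lower, against 797 and 434 with all libraries. Log2 fold changes without it were 0.61 for Bcl2l1, 0.99 for Pmaip1, 0.69 for Bak1 and 0.60 for Apaf1, and the same 4 of the 9 passed. In such bulk libraries a change in the share of cells that carry a transcript and a change in its amount per cell cannot be told apart.

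Proximal promoter sequences of 3 of the genes that rose in Atg5-deficient libraries are shown so that they can be set side by side. Each is the 250 bases before a transcription start, 5′ to 3′ on the gene's strand, from RefSeq's GRCm38.p6 annotation. Capitals mark matches to the motifs searched.
Apaf1, chr10:91082744-91082993, minus strand: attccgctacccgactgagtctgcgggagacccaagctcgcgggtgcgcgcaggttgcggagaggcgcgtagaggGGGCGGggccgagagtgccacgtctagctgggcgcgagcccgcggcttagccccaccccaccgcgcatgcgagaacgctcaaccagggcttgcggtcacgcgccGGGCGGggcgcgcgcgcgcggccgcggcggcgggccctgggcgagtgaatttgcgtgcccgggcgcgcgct
Bcl2l1, chr2:152830718-152830967, minus strand: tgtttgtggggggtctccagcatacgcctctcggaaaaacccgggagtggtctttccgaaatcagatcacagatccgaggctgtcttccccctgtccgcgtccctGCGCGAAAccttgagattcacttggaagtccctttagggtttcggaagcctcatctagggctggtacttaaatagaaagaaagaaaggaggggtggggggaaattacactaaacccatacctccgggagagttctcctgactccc
Bak1, chr17:27028628-27028877, minus strand: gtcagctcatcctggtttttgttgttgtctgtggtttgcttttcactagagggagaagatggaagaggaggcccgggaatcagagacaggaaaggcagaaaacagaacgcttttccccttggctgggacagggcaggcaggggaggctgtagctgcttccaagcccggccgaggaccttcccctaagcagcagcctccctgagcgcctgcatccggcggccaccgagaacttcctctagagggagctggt

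Both strands were searched for E2F sites (TTTCCCGC, TTTGGCGC, TTTCGCGC and TTTGCCGC), STAT sites (TTCNNNGAA), FOXO sites (TGTTTAC), the GC box (GGGCGG), the CCAAT box (CCAAT) and the p53 half-site. The Apaf1 window held 2 GC boxes, 175 to 170 and 71 to 66 bases before the start, a motif found in 32.7% of 32851 windows of the same length. Bcl2l1 has 3 annotated starts, and the second, shown because it held a match, had an E2F match 145 to 138 bases before it, as in 1.86% of all windows. The Bak1 window held none of the 6 motifs, of which STAT sites occur in 7.02% and CCAAT boxes in 33.8% of all windows. Of the 13 windows of the 8 genes other than Pmaip1, that of Bax alone held a p53 half-site (7.13% of all windows). A FOXO match lay before 1 of 2 starts of Bcl2l11 and 1 of 3 starts of Bbc3 (3.17% of all windows). These are matches of letters in 1 window and not evidence of binding.

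Of the 9 genes, 4 rose in Atg5-deficient libraries, 0 fell and 5 did not pass (edgeR's quasi-likelihood test, Benjamini-Hochberg adjusted p under 0.05). At an unadjusted p under 0.05, 5 were higher and 0 lower. DESeq2 called 4 higher, limma-voom called 5 higher, and both called 0 lower. Among the 17987 genes tested, 6.84% were called, 4.43% higher and 2.41% lower. By edgeR 4205 of them had an unadjusted p under 0.05 in either direction. Over the same genes DESeq2 called 1387 higher and 934 lower, and limma-voom 1966 higher and 1460 lower. The genes that rose lie on both sides of the pathway, namely Pmaip1, Bak1 and Apaf1, which promote death, and Bcl2l1, which opposes it. Fold changes were 1.97 for Pmaip1, 1.59 for Apaf1, 1.57 for Bcl2l1 and 1.53 for Bak1. The median log2 fold change of the 9 was 0.28, and that of all tested genes was -0.0027. In Pmaip1 and Apaf1, 2 of 9, every Atg5-deficient library stood above every wild-type library, as in 2.78% of all tested genes, and in 0 of 9 the reverse held, as in 2.08% (4.86% in either direction).

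**Figure D1:**
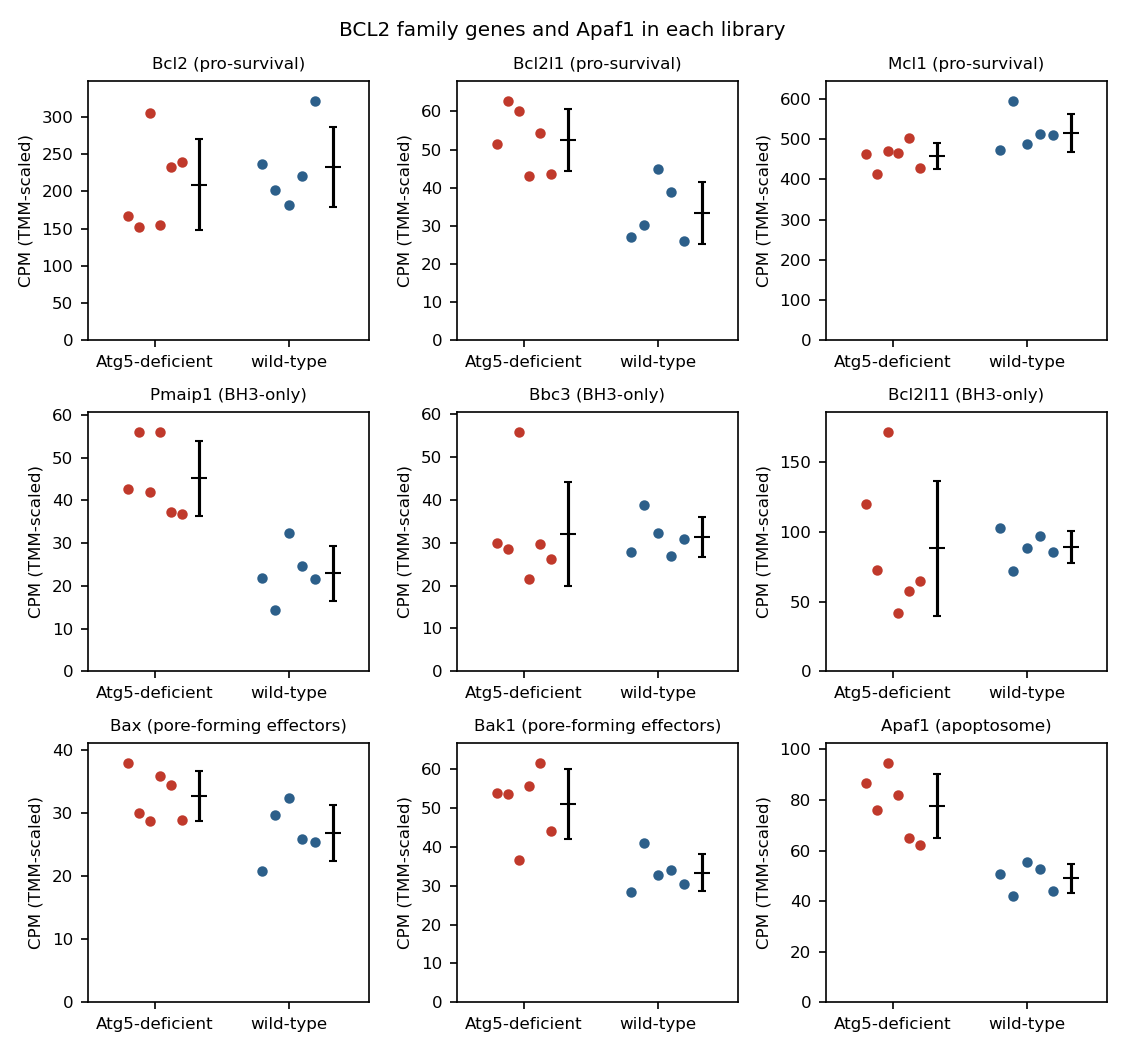
Expression of the 9 genes in each library, in TMM-scaled CPM from 0 on each linear axis, with Atg5-deficient libraries (red, n = 6) left of wild-type libraries (blue, n = 5) and the mean ± SD as a black bar. The groups are apart for Pmaip1 and Apaf1, nearly so for Bak1, and overlap widely for Bcl2, Bbc3 and Bcl2l11.

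Among the pro-survival genes, Bcl2l1 (ENSMUSG00000007659, chromosome 2, 152780668 to 152831728, minus strand, GRCm38), which encodes BCL-XL, rose. It stood at 51.4, 62.8, 60.1, 43.1, 54.3 and 43.7 CPM in the Atg5-deficient libraries and at 27.1, 30.2, 44.95, 38.8 and 26.1 CPM in the wild-type libraries. Atg5-deficient replicates 4 and 6 were just under wild-type replicate 3, and the remaining 4 exceeded the whole wild-type range. Means were 52.6 ± 8.16 CPM in Atg5-deficient libraries (SD, n = 6) against 33.4 ± 8.17 CPM in wild-type libraries (SD, n = 5), a log2 fold change of 0.65 (SE 0.15, adjusted p = 0.0224). This call was lost in 3 of 11 fits that left out 1 library, those without Atg5-deficient replicate 2 (log2 fold change 0.60, adjusted p = 0.0543), wild-type replicate 1 (0.59, adjusted p = 0.0570) and wild-type replicate 5 (0.58, adjusted p = 0.0569).

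Bcl2, the founding pro-survival gene (ENSMUSG00000057329, chromosome 1, 106538178 to 106714274, minus strand), did not pass. Its values were 167, 151, 305, 155, 233 and 239 CPM in Atg5-deficient libraries and 236, 202, 182, 221 and 322 CPM in wild-type libraries. Atg5-deficient replicates 1, 2 and 4 were lower than all the wild-type libraries, whereas replicate 3 was second only to wild-type replicate 5. The log2 fold change was -0.16 (95% interval -0.59 to 0.27, adjusted p = 0.682).

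Mcl1 (ENSMUSG00000038612, chromosome 3, 95658788 to 95663176, plus strand), whose short-lived protein holds back BAK and BIM, varied least of the 9 relative to its mean. Atg5-deficient libraries had 463, 414, 470.7, 465, 503 and 427 CPM, against 471.5, 595, 486, 512 and 511 CPM in wild-type libraries. Apart from Atg5-deficient replicate 5, each Atg5-deficient library was below every wild-type library. With means of 457 ± 32.0 CPM in Atg5-deficient libraries (SD, n = 6) against 515 ± 47.9 CPM in wild-type libraries (SD, n = 5), the log2 fold change was -0.17 (95% interval -0.35 to 0.00090) and did not pass (adjusted p = 0.216).

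Per kilobase of merged exons, Mcl1 was far above the rest, at 134 ± 9.36 CPM per kilobase in Atg5-deficient (SD, n = 6) and 151 ± 14.0 in wild-type libraries (SD, n = 5). In both genotypes its lowest library lay above the highest library of Bcl2, the next in order, at 22.8 ± 6.66 CPM per kilobase in Atg5-deficient and 25.4 ± 5.87 in wild-type libraries. Below Mcl1, every gene overlapped its neighbour in that order. In Atg5-deficient libraries the order ran on through Bak1, Bax, Pmaip1, Bbc3, Bcl2l1 and Bcl2l11 to Apaf1 at 8.61 ± 1.40 CPM per kilobase. In wild-type libraries it ran through Bax, Bbc3, Bak1, Bcl2l11, Pmaip1 and Bcl2l1 to Apaf1 at 5.43 ± 0.631. By these means Pmaip1 was above Bbc3 and Bcl2l11 in Atg5-deficient libraries (16.5 ± 3.21 CPM per kilobase) and below both in wild-type libraries (8.40 ± 2.38). Single libraries differed from that order, with Bbc3 above Pmaip1 in Atg5-deficient replicates 3 and 5, Bcl2l11 above it in Atg5-deficient replicate 3, and Pmaip1 above Bcl2l11 in wild-type replicate 3.

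Of the BH3-only genes, Pmaip1 (ENSMUSG00000024521, chromosome 18, 66458533 to 66465565, plus strand) rose. It encodes NOXA, a small BH3-only protein that binds chiefly MCL1 and is transcribed on p53 and stress signals. It was at 42.7, 56.1, 42.0, 56.0, 37.3 and 36.9 CPM in Atg5-deficient libraries and 21.9, 14.3, 32.3, 24.7 and 21.6 CPM in wild-type libraries. The lowest Atg5-deficient library, replicate 6, was above the highest wild-type library, replicate 3. Its log2 difference was 0.97 (SE 0.18, 95% interval 0.58 to 1.37, adjusted p = 0.00989), the largest of the 9, and the gene was called in all 11 fits that left out 1 library.

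Bbc3 (ENSMUSG00000002083, chromosome 7, 16308393 to 16318205, plus strand), which encodes PUMA, another p53 target that can bind every pro-survival member, did not pass. It had 29.9, 28.5, 55.9, 21.5, 29.8 and 26.2 CPM in Atg5-deficient libraries and 27.8, 38.7, 32.3, 26.9 and 30.8 CPM in wild-type libraries. Atg5-deficient replicate 3 stood far above all others, and the remaining Atg5-deficient libraries lay within or below the wild-type range. The log2 fold change of 0.03 (95% interval -0.41 to 0.47, adjusted p = 0.952) became -0.20 without that library (adjusted p = 0.282).

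Bcl2l11 (ENSMUSG00000027381, chromosome 2, 128126038 to 128162547, plus strand), which encodes BIM, had almost the same mean in both genotypes but a different spread. It was at 119.95, 73.0, 172, 42.1, 57.4 and 64.8 CPM in Atg5-deficient libraries, a 4.08-fold range, and at 103, 72.1, 88.9, 97.0 and 85.9 CPM in wild-type libraries, a 1.42-fold range. Atg5-deficient replicates 1 and 3 were above every wild-type library, replicates 4, 5 and 6 below every one, and replicate 2 among them. The log2 fold change was -0.02 (95% interval -0.73 to 0.69, adjusted p = 0.982), an interval wide enough to hold a rise like that of Bcl2l1. The difference in spread was not tested. Summed hepatocyte markers were 1238, 1305 and 975 CPM in Atg5-deficient replicates 1, 2 and 3, and 73.7, 165 and 315 CPM in replicates 4, 5 and 6. Their part in the level of Bcl2l11 was not tested beyond a fit with those markers as a covariate, in which the log2 fold change was -0.30 and did not pass.

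**Figure D2:**
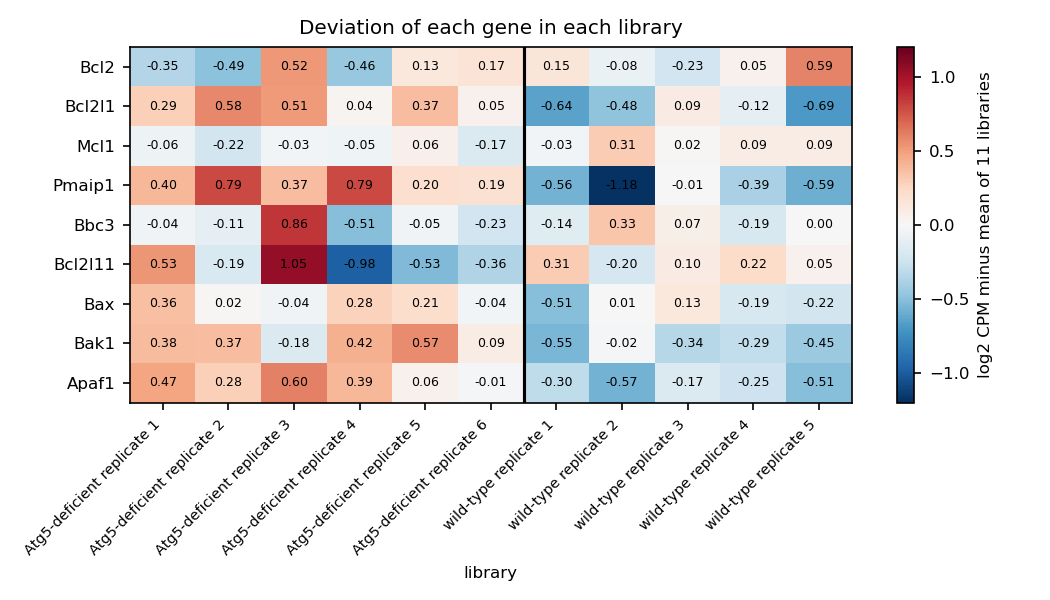
Log2 CPM of each gene in each library minus its mean over the 11 libraries (colour and printed value), with Atg5-deficient libraries left of the black line and wild-type libraries right of it. Pmaip1 is above its mean in every Atg5-deficient and below it in every wild-type library, while Bcl2l11 runs from 1.05 in Atg5-deficient replicate 3 to -0.98 in Atg5-deficient replicate 4.

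Between the effectors, Bak1 (ENSMUSG00000057789, chromosome 17, 27019810 to 27029009, minus strand) rose. BAK sits in the outer mitochondrial membrane and oligomerises into pores once freed from MCL1 and BCL-XL. It had 53.9, 53.6, 36.7, 55.6, 61.6 and 44.1 CPM in Atg5-deficient libraries, against 28.4, 40.9, 32.8, 33.9 and 30.4 CPM in wild-type libraries. Only Atg5-deficient replicate 3 lay within the wild-type range, under wild-type replicate 2, and the other 5 were above it. Its rise on the log2 scale was 0.61 (SE 0.13, adjusted p = 0.0152), and the call was kept in all 11 fits without 1 library. On the other strand Bak1 shares exonic bases with both gene IDs named Ggnbp1. One shares 177 bases and had 57.7% of the Bak1 count, and the other shares 437 bases and had 4.23% of it. The strand setting of the counting is not stated in the sources used here, so shared reads cannot be told apart. Neither Ggnbp1 ID passed, the more counted one being at 23.9 ± 4.38 CPM in Atg5-deficient libraries against 25.9 ± 2.05 CPM in wild-type libraries (log2 fold change -0.12, adjusted p = 0.613) and the other having a log2 fold change of -0.47 (adjusted p = 0.401).

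Bax (ENSMUSG00000003873, chromosome 7, 45461697 to 45466898, minus strand) encodes the effector that moves from the cytosol to mitochondria. Values were 37.9, 30.0, 28.7, 35.9, 34.3 and 28.9 CPM in Atg5-deficient libraries and 20.8, 29.7, 32.4, 25.9 and 25.3 CPM in wild-type libraries. The groups overlapped, with Atg5-deficient replicates 1, 4 and 5 above the wild-type range. Its log2 fold change of 0.28 (95% interval 0.02 to 0.54) had an unadjusted p of 0.0338 and did not pass over all genes (adjusted p = 0.172), though limma-voom with sample quality weights called it (0.39, adjusted p = 0.0271). The gene shares 192 exonic bases with Gm45808 on the same strand, which had 52.2% of its count and a log2 fold change of 0.38 (adjusted p = 0.122).

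Apaf1 (ENSMUSG00000019979, chromosome 10, 90989311 to 91082770, minus strand) had the smallest p of the 9. It was counted at 86.6, 76.0, 94.7, 82.1, 65.0 and 62.0 CPM in Atg5-deficient libraries, against 50.7, 42.2, 55.4, 52.7 and 43.9 CPM in wild-type libraries. No library of one genotype reached the range of the other. Means were 77.7 ± 12.6 CPM in Atg5-deficient libraries (SD, n = 6) against 49.0 ± 5.70 CPM in wild-type libraries (SD, n = 5), with a log2 fold change of 0.67 (SE 0.12, adjusted p = 0.00720). None of the 11 fits without 1 library lost this call. It was also the one gene of the 9 that still passed among the 8 libraries with consecutive title numbers, 5 Atg5-deficient and 3 wild-type (0.69, adjusted p = 0.0493). There the log2 fold changes of Pmaip1 (0.98, adjusted p = 0.0699), Bak1 (0.55, adjusted p = 0.105) and Bcl2l1 (0.52, adjusted p = 0.110) were of like size without passing.

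**Figure D3:**
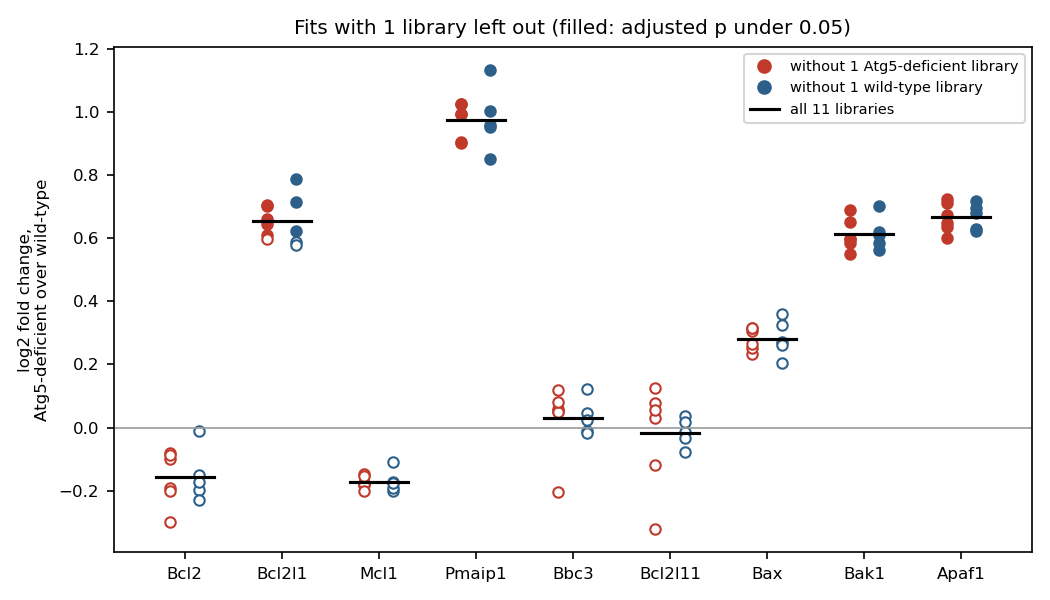
Log2 fold change of each gene (Atg5-deficient over wild-type, vertical axis) in the 11 fits that each leave out 1 library, red for an Atg5-deficient and blue for a wild-type library left out, filled where adjusted p was under 0.05, with the value of all 11 libraries as a black line. Pmaip1, Bak1 and Apaf1 pass in all 11 fits, Bcl2l1 in 8, and the others in none.

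Opposing genes were also set against each other inside each library, where the scaling of libraries cancels. Of 5 pairs of death-promoting over survival-promoting genes, only Pmaip1 over Mcl1, NOXA and its main partner, differed past the threshold. Counts per kilobase of Pmaip1 were 0.115, 0.170, 0.112, 0.151, 0.0928 and 0.108 of those of Mcl1 in Atg5-deficient libraries and 0.0582, 0.0301, 0.0832, 0.0604 and 0.0529 in wild-type libraries. The 2 genotypes did not overlap, and all 6 Atg5-deficient values were the higher. On the log2 scale the ratio was 1.17 higher, a 2.25-fold difference (exact permutation test over 462 splits, two-sided, p = 0.00216, the smallest possible, adjusted over the 5 pairs 0.0108). That adjusted p was 0.0595 without wild-type replicates 2 and 3, 0.0649 for medians and 0.0893 among the 8 libraries of consecutive title numbers. The 0.0595 and 0.0893 each come from the smallest p that so few libraries allow. Beside the other pairs, this pair could not have passed in those subsets, where its 2 genotypes still did not overlap. Both genes were chosen with their changes known, so this p is not independent support.

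The other ratios were less uniform. Bax over Bcl2 ran from 0.547 to 1.34 in Atg5-deficient and from 0.458 to 1.03 in wild-type libraries, with a log2 difference of 0.47 (exact permutation p = 0.156, adjusted 0.390). Bak1 over Bcl2l1, where both genes rose, was 1.16 to 2.46 in Atg5-deficient and 1.39 to 2.58 in wild-type libraries (log2 difference -0.07, exact permutation p = 0.755). Bcl2l11 over Bcl2 was 0.281 to 0.817 in Atg5-deficient and 0.305 to 0.557 in wild-type libraries (log2 difference 0.01, exact permutation p = 0.976). Bcl2l11 over Mcl1 was 0.0386 to 0.156 in Atg5-deficient and 0.0516 to 0.0927 in wild-type libraries (log2 difference -0.0027, exact permutation p = 1). For both Bcl2l11 ratios the SD among Atg5-deficient libraries, 0.65 and 0.74 on the log2 scale, exceeded that among wild-type libraries, 0.34 and 0.32.

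**Figure D4:**
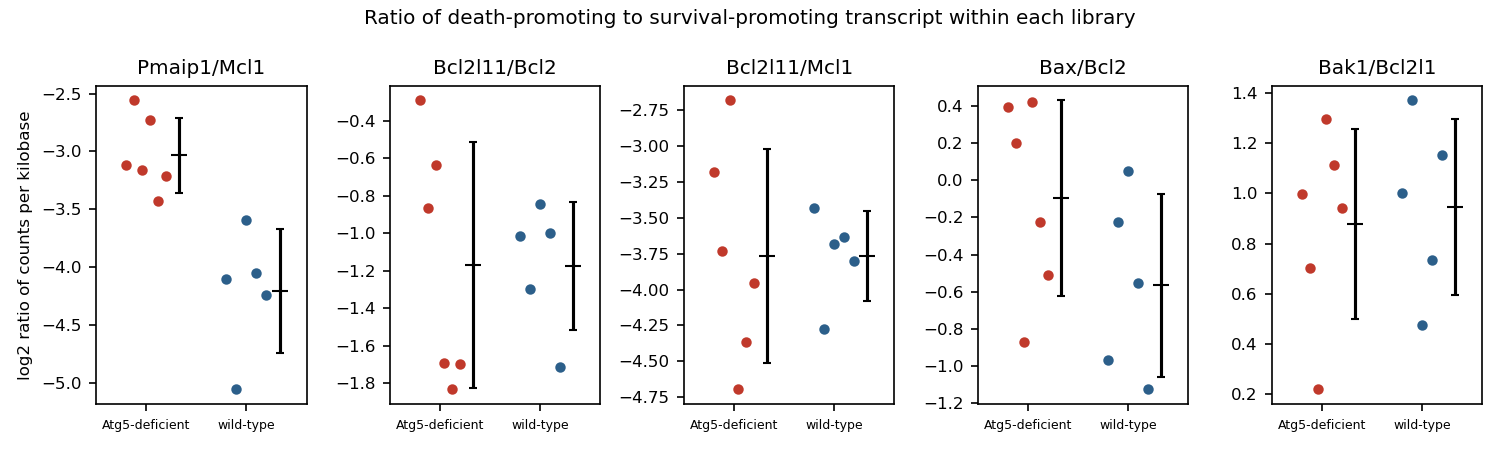
Log2 ratio of counts per kilobase of the first gene over the second in each library, for 5 pairs, with Atg5-deficient libraries (red, n = 6) left of wild-type libraries (blue, n = 5) and the mean ± SD as a black bar. The genotypes are apart for Pmaip1 over Mcl1 and overlap for the other 4 pairs.

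The wider pathway was read from 4 lists of other pro-survival genes, other BH3-only and effector genes, inhibitors of apoptosis and death receptor genes. Of their 31 genes 28 were tested, 3 rose, 0 fell and 25 did not pass, with a median log2 fold change of 0.15. Of all tested genes, 4.43% were called higher and 2.41% lower. At an unadjusted p under 0.05 edgeR had 8 higher and 0 lower, against 4205 of all 17987 tested genes in either direction. DESeq2 called 6 higher and limma-voom 8 higher, and both called 0 lower. Over all 17987 genes they called 1387 and 1966 higher, and 934 and 1460 lower. The apoptosome's other parts, Casp9 (0.17, adjusted p = 0.483), whose product is activated there, and the cytochrome c gene Cycs (0.05, adjusted p = 0.890), did not pass.

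Of 4 other pro-survival genes tested, Bcl2a1b (A1, an NF-kB target induced by T cell activation) rose, at 49.7 ± 16.7 CPM in Atg5-deficient libraries against 27.0 ± 4.43 CPM in wild-type libraries (log2 fold change 0.88, adjusted p = 0.0428). Its near-identical copy Bcl2a1d had a log2 fold change of 0.92 (adjusted p = 0.0626). Reads could be shared between the copies, and the call was kept in 2 of 11 fits without 1 library. None of 6 other BH3-only and effector genes passed by edgeR, DESeq2 or limma-voom (0 at an unadjusted p under 0.05), among them Bid (0.23, adjusted p = 0.380), the link from death receptors to mitochondria, and Bmf (0.12, 95% interval -1.27 to 1.51).

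Among 7 inhibitor of apoptosis genes Naip2 rose (log2 fold change 0.80, adjusted p = 0.0226), a gene better known as an inflammasome sensor, while Xiap, the direct inhibitor of caspases, did not pass (0.22). Naip2 has close paralogs that may share its reads, and passed in 8 of 11 fits without 1 library. Birc5 (survivin, which also serves in mitosis) had 12.3 ± 5.54 CPM in Atg5-deficient libraries against 4.44 ± 1.58 CPM in wild-type libraries and missed the threshold (adjusted p = 0.0585). In the death receptor list 1 of 11 rose, the ligand gene Tnfsf10, which encodes TRAIL (0.62, adjusted p = 0.0453), a call kept in 2 of 11 fits. Fas (-0.01, adjusted p = 0.971) did not pass, nor did Casp8 (-0.06, adjusted p = 0.751) or Cflar (-0.11, adjusted p = 0.518).

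**Figure D5:**
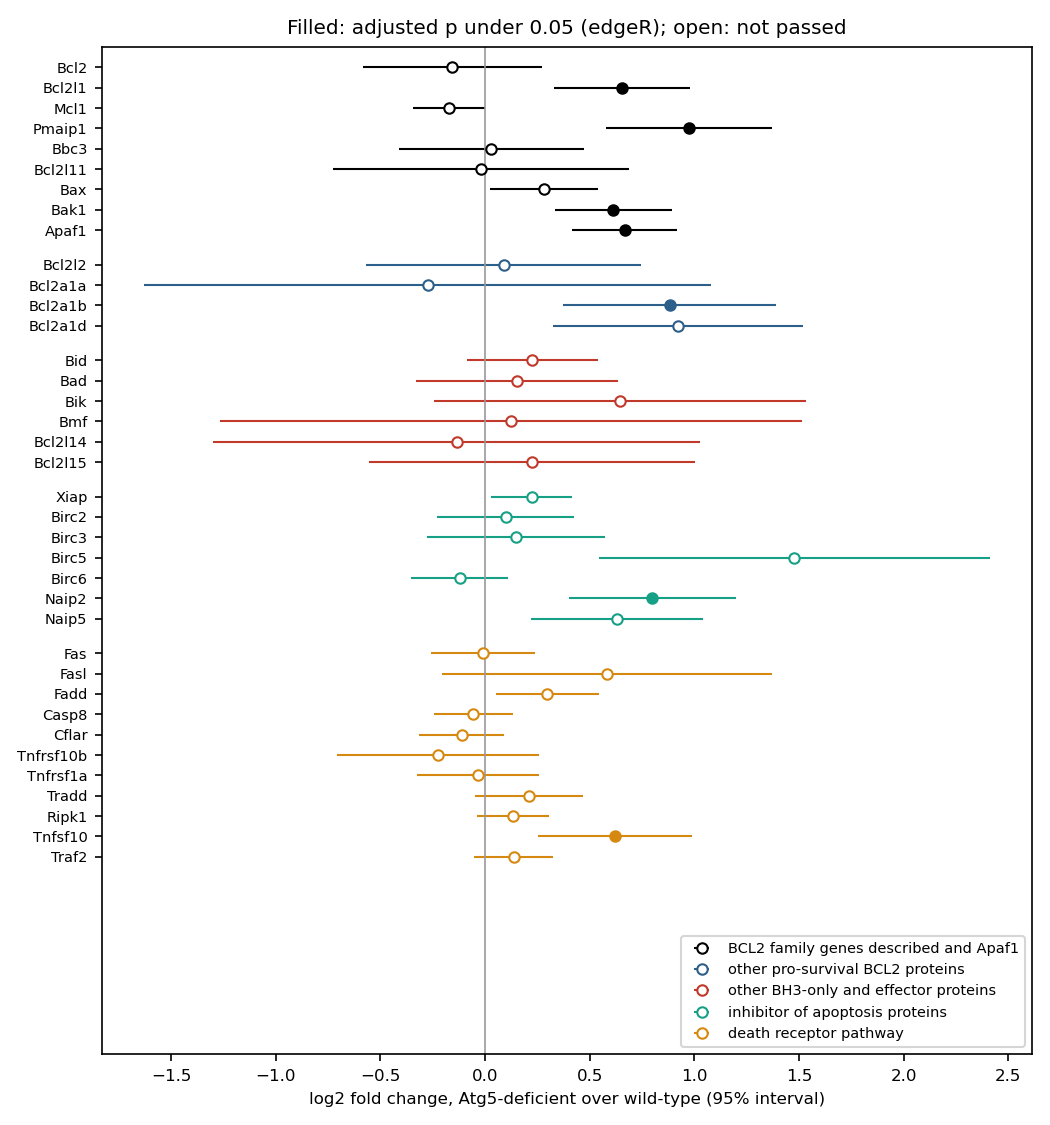
Log2 fold change (Atg5-deficient over wild-type, horizontal axis) with its 95% interval for the 9 genes (black) and the 28 tested genes of the 4 other lists (colours), filled where adjusted p was under 0.05. The filled points, 4 of the 9 and 3 of the 28, all lie to the right of 0. Of all tested genes, 4.43% were called higher and 2.41% lower.

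Transcription factors and signals known to act on these genes were read in the same fit. Over all 17987 genes tested, that fit called 4.43% higher and 2.41% lower. It had 4205 at an unadjusted p under 0.05 in either direction. Of 19 tested genes of p53 and its targets, a list that includes Pmaip1, Bbc3, Bax and Apaf1, 4 rose and 1 fell, with a median log2 fold change of 0.30. Pmaip1 and Apaf1 are 2 of the 4. At an unadjusted p under 0.05, 9 were higher and 2 lower, DESeq2 called 6 higher and 2 lower, and limma-voom 10 higher and 2 lower. Cdkn1a, which encodes the cell cycle inhibitor p21, rose by 1.54 (SE 0.33, adjusted p = 0.0172), with 6.81 to 23.4 CPM in Atg5-deficient libraries against 2.87 to 7.88 CPM in wild-type libraries. Trp53inp1, a stress-induced p53 cofactor gene, rose by 0.31 (SE 0.06, adjusted p = 0.0110) with little spread, at 243 ± 4.41 CPM in Atg5-deficient libraries (SD, n = 6) against 195 ± 8.12 CPM in wild-type libraries (SD, n = 5). Sesn1, a sestrin gene, fell by 0.49 on the log2 scale (adjusted p = 0.0272), a call kept in 6 of 11 fits. Mdm2, which feeds back on p53, did not pass (0.12, adjusted p = 0.350), nor did Trp53 itself (-0.13, adjusted p = 0.589).

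E2F factors, of which only some drive S-phase genes and in other settings Apaf1, rose in 4 of 8 cases. They were E2f2 (log2 fold change 1.04), E2f3 (0.75), E2f7 (1.22) and E2f8 (1.28), with adjusted p from 0.0277 to 0.0429, called in 4, 5, 1 and 5 of 11 fits without 1 library. At an unadjusted p under 0.05 edgeR had 6 E2F genes higher and 0 lower. DESeq2 called 4 of them higher and 0 lower, and limma-voom 6 higher and 1 lower. Cell cycle genes rose in 15 of 25 cases, against 4.43% of all tested genes. DESeq2 called 19 cell cycle genes higher and limma-voom 20, and both called 0 lower. The summed level of these genes was 725 to 1519 CPM in Atg5-deficient libraries against 633 to 819 CPM in wild-type libraries. Atg5-deficient replicate 3 had the 725 CPM, inside the wild-type range. The part of proliferation in the rise of the 4 genes was not tested.

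In the FOXO list, which includes Bcl2l11, 1 of 12 fell and 0 rose, as with DESeq2, while limma-voom called 4 lower and 0 higher (edgeR, 2 lower and 0 higher at an unadjusted p under 0.05). The gene that fell was Txnip, an inhibitor of thioredoxin and glucose uptake, at 1025 ± 180.03 CPM in Atg5-deficient libraries against 1515 ± 248 CPM in wild-type libraries (log2 fold change -0.56, adjusted p = 0.0266), and it passed in 7 of 11 fits. In the IL-7, IL-2 and STAT5 list, which includes Bcl2, 3 of 14 rose and 0 fell (1 lower at an unadjusted p under 0.05, 1 called lower by DESeq2 and 3 by limma-voom). Il2rb, the receptor chain that IL-2 and IL-15 share, rose by 0.69 (SE 0.14, adjusted p = 0.0134) in all 11 fits, and the STAT5 feedback genes Cish (0.56) and Socs2 (1.09) rose with 6 and 7 of 11 fits. Il7r did not pass (-0.21, adjusted p = 0.316). Of 13 regulators of BCL2 proteins, such as the autophagy protein gene Becn1 (0.10, adjusted p = 0.456), whose product BCL2 binds, edgeR called 0, with 4 higher and 1 lower at an unadjusted p under 0.05. DESeq2 called 1 higher, and limma-voom 4 higher and 1 lower.

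The genes whose deviations within a genotype most resembled those of the 4 that rose were sought among 9188 protein-coding genes of at least 5 CPM, over the 11 libraries. Pmaip1 was nearest to Mdfic (Pearson r = 0.943, Spearman rho = 0.964), Tmtc4 (0.928) and N4bp1 (0.926). Mdfic and N4bp1 themselves rose, by log2 fold changes of 0.72 and 0.49. Apaf1 was nearest to Abcb1a (r = 0.936, rho = 0.973), Fam185a (0.934) and Cysltr2 (0.934), Bcl2l1 to Ctif (0.959, rho = 0.964), Ing2 (0.929) and Ccdc117 (0.925), and Bak1 to Nelfb (0.984, rho = 0.991), Mob3a (0.983) and Gnas (0.980). Without the 2 libraries farthest from the median, the values of r were 0.837 to 0.974. The highest of so many correlations over 11 points is high by choice, and all points share library and depth.

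Among the 9 themselves, deviations within a genotype had their highest r for Bbc3 and Bcl2l11 (r = 0.711, rho = 0.382 over 11 libraries), followed by Bax and Bak1 (r = 0.662, rho = 0.70) and Bcl2l11 and Apaf1 (r = 0.606, rho = 0.691). They were most opposed for Bcl2l11 and Bak1 (r = -0.648, rho = -0.645). Atg5-deficient replicate 3, with the highest Bbc3 and Bcl2l11 of all and the lowest Bak1 of its genotype, is among the 11 points of each.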

How the data were processed

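Total RNA of 11 libraries was counted per Ensembl gene. The deposited counts are raw. The submitters' processing notes name STAR, featureCounts and GRCm38. Versions, annotation release, strandedness of the counting and the treatment of multimapping reads are not stated in the sources used here. The series describes flow-sorted cells, while the labels' protocols name fixed, embedded sections and a stranded total RNA kit. The table had 0 columns of other samples. IDs were matched to GENCODE M21 (GRCm38), 52125 of 56748.

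Genes were filtered with filterByExpr (minimum count 10, total 15), scaled by TMM and tested for genotype with edgeR 4.0.16 (R 4.3.3, robust quasi-likelihood F test, Benjamini-Hochberg over 17987 genes, threshold 0.05). SEs and 95% intervals come from that test. Ratios used counts plus 0.5 per kilobase and exact permutation. In a simulation of this comparison over 17554 genes, 31.3%, 58.2% and 71.2% of 1.5-, 2- and 4-fold changes were recovered, with 4 false calls among 111. It changed only 67, 67 and 66 genes at those folds, whereas 1231 genes were called in the data, so its rates need not hold for them. Alternatives used DESeq2 1.42.0, limma 3.58.1, other scalings, filters and subsets.

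Genotypes come from the labels, and replicates are numbered in accession order, which pairs nothing. The genes and lists were chosen with earlier results of these data known, so their counts are no independent support. Named genes are the 9, Atg5, up to 4 called genes per list by smallest p, not all of which are named, and 3 nearest genes of each called gene. Other genes named without a call, and the member pairs given, were chosen after their values were seen. One further list of the wider pathway, which held called genes, is not reported here.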

Additional observations from a re-analysis of the deposited data

Results flagged for a closer look

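The level of Bbc3 in Atg5-deficient replicate 3, 55.9 CPM, lay far from the other 5 libraries of its genotype, the gap to the next being 0.757 of the whole range. Dixon's rule sets a limit on that share by the size of the group. Of 18 groups of values examined (9 genes in 2 genotypes) 1 lay past its limit. Chance gives about 1 in 20 such groups. The same library had the highest Bcl2 (305 CPM), Bcl2l11 (172 CPM) and Apaf1 (94.7 CPM) of the Atg5-deficient libraries and the lowest Bax (28.7 CPM) and Bak1 (36.7 CPM).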

How the results depend on the processing

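Under the 10 alternatives that kept or left out several libraries or changed a setting, Apaf1 kept its direction and call. Mcl1 kept its direction and passed in none of them. Among the 8 libraries with consecutive title numbers, calls were lost for Bcl2l1 (log2 fold change 0.52), Pmaip1 (0.98) and Bak1 (0.55). The signs of Bcl2 (0.0088), Bcl2l11 (0.11) and the Bcl2l11/Bcl2 (-0.0169), Bcl2l11/Mcl1 (0.13) and Bak1/Bcl2l1 (0.0049) ratios turned there. Pmaip1/Mcl1 (1.23) did not pass, though it had the smallest p that so few libraries allow. There 87 genes were higher and 89 lower. Bbc3 turned to -0.0315 with upper-quartile factors, -0.0659 with limma-voom and -0.0866 with hepatocyte markers as a covariate. Limma-voom called Bax (0.39). Medians gave 0.96 for Pmaip1/Mcl1, without its call, and -0.26 for Bcl2l11/Bcl2. Leaving out both wild-type libraries with under 92% of reads in named genes, an alternative chosen after seeing the data, gave 483 higher and 239 lower genes. Pmaip1/Mcl1 was 1.10 there and did not pass, again at the smallest p that so few libraries allow. Upper-quartile factors gave 584 higher and 685 lower genes (46.0% higher, against 64.7%), DESeq2 1387 and 934, and limma-voom 1966 and 1460. The cause of these changes was not tested.

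With 1 library left out, 402 to 1410 genes were higher and 191 to 733 lower, the most without Atg5-deficient replicate 3. Either count moved by over 1.5 times without Atg5-deficient replicate 1 (513 higher, 202 lower), 2 (451, 191), 3 (1410, 733) or 4 (500, 202), or wild-type replicate 1 (402, 271), 3 (577, 276), 4 (426, 284) or 5 (426, 225). Log2 fold changes ran from -0.30 to -0.01 for Bcl2, 0.58 to 0.79 for Bcl2l1, -0.20 to -0.11 for Mcl1, 0.85 to 1.13 for Pmaip1, -0.20 to 0.12 for Bbc3, -0.32 to 0.13 for Bcl2l11, 0.20 to 0.36 for Bax, 0.55 to 0.70 for Bak1 and 0.60 to 0.72 for Apaf1. Log2 ratio differences ran from 0.96 to 1.33 for Pmaip1/Mcl1, -0.17 to 0.14 for Bcl2l11/Bcl2, -0.22 to 0.18 for Bcl2l11/Mcl1, 0.33 to 0.62 for Bax/Bcl2 and -0.19 to 0.0628 for Bak1/Bcl2l1. Of 14 called genes named from the other lists, 0 turned in sign under any of these settings, 14 lost their call among those 8 libraries and 8 without the 2 libraries. With 1 library left out, 11 lost it without wild-type replicate 1 and 10 without Atg5-deficient replicate 2. The fewest, 1, lost it without Atg5-deficient replicate 3 or 6. With no filter on low counts 5 lost it. No paired analysis was possible because the labels carry no replicate numbers.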
